A study of Homo sapiens with 12 samples.

Results

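Glycolysis and the response to low oxygen (hypoxia) were followed through 32 human genes in 4 breast cancer lines that descend from SKBR-3, a line in which the receptor gene HER2 (ERBB2) is amplified. The genes were taken by name: 24 genes of glycolysis (4 transporters of glucose or lactate, 17 enzymes and 3 regulators) and 8 targets of hypoxia signalling. Each was represented by 1 probe set of the array, the one that names a single gene and has the highest mean over all 12 arrays. Such a probe set was found for 29 of the 32 genes, among 19775 genes in all: 22 genes of glycolysis (2 transporters, 17 enzymes and 3 regulators) and 7 hypoxia targets. The lactate transporters SLC16A1 and SLC16A3 and the carbonic anhydrase CA9 were not analysed here. No filter on low values was applied, so all 29 genes were tested.

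The 4 lines had 3 biological replicates each, with 1 array per replicate. SKR6LR came from SKR6 cells exposed over several months to lapatinib, which blocks the kinases of EGFR and HER2, at concentrations raised between 0.2 and 5 µM. SKR6CA had been transduced by retrovirus with relA/p65, a subunit of the transcription factor NF-kB, in a constitutively active version (CAp65). SKR6-Vector had received the empty retroviral vector pQCXIP. Both transduced lines were selected with puromycin. SKR6, their common parent, was sorted from SKBR-3 for elevated HER2, and so all 4 lines share that sort. RNA was taken after 48 hours of growth in medium with serum. The labels state that cells spelled "SKLR" were kept in 0.2 µM lapatinib. If these are the SKR6LR cells, the long selection and the drug in the medium cannot be told apart. Each condition was 1 derived line, and the labels do not say whether its replicates were derived separately. The p-values of single genes thus measure the spread between cultures within lines, taken as 1 spread per gene for all 4 lines. That spread was not equal, with a replicate SD of 0.209 in SKR6LR and 0.0958 in SKR6.

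The values are log2 intensities with array medians between 5.74 and 5.77, and they ran over the whole array between 3.00 and 15.28. Of 8 markers of the SKBR-3 line and of breast epithelium (ERBB2, GRB7, STARD3, EPCAM, KRT8, KRT18, KRT19 and CDH1), 7 had a mean above 8 in every line. They were not at equal levels: in SKR6LR against SKR6, ERBB2 (-1.38), its neighbours in the amplified region GRB7 (-1.28) and STARD3 (-1.02), and KRT19 (-0.94) fell, while KRT8 (0.45) and KRT18 (0.63) rose. CDH1 was low in every line, with means of 4.24 in SKR6LR, 4.28 in SKR6CA, 4.27 in SKR6-Vector and 4.28 in SKR6; SKBR-3 is known to lack E-cadherin, its product. The SKR6LR arrays stood apart: they correlated with arrays of the other lines at 0.914 to 0.933, and their replicate SD (root of the mean variance over genes) was 0.209, against 0.107 in SKR6CA, 0.0965 in SKR6-Vector and 0.0958 in SKR6. SKR6LR replicate 3 also had the largest gap between the 3′ and 5′ ends of the actin control (2.32 on the log2 scale, against 1.03 to 1.73 on the other 11 arrays), a sign of RNA quality. Summed levels of the 5 leukocyte markers measured ran between 8.79 and 9.00 in SKR6LR and between 7.29 and 7.42 in SKR6, and those of 6 fibroblast markers between 9.80 and 10.16 in SKR6LR and between 8.43 and 8.47 in SKR6. Those of 4 endothelial markers ran between 9.12 and 9.72 in SKR6LR, 8.75 and 8.82 in SKR6CA, 8.67 and 8.72 in SKR6-Vector and 7.47 and 7.57 in SKR6. In SKR6LR against SKR6, 2 of the 5 leukocyte markers (CSF1R, 2.32, and CD14, 1.72), 2 of the 4 endothelial ones (CDH5, 3.83, and VWF, 0.62) and 1 of the 6 fibroblast ones (COL3A1, 4.92) rose and 0 fell, while PTPRC, the defining leukocyte marker, had a mean of 4.22 in SKR6LR and 4.16 in SKR6. CDH5 was also above SKR6 in SKR6CA (3.08) and in SKR6-Vector (2.96), and so was CSF1R (0.83 and 0.47). Markers of breast epithelium differed there too. KRT18 was above SKR6 in SKR6CA (0.41) and in SKR6-Vector (0.30), and EPCAM was lower in SKR6CA than in SKR6-Vector (-0.34). The part of these differences in the results below was not tested.

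Glycolysis turns glucose into pyruvate in the cytosol, and tumour cells often pass much of that pyruvate on to lactate even when oxygen is present. Many of its steps are carried out by several isozymes, products of different genes that catalyse the same reaction with different regulation. Hypoxia-inducible factors (HIFs), made of an oxygen-sensitive alpha subunit and ARNT, bind a short core motif near many glycolytic genes and near genes for blood vessel growth, pH control and mitophagy. Some of these genes are also known to respond to NF-kB or to growth-factor signalling, so their messages are not a measure of oxygen by themselves.

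In SKR6LR, 6 glycolysis genes rose and 11 fell relative to SKR6 among 22 measured, or 27.3% and 50.0%, with a median difference of -0.21 on the log2 scale. Over all 19775 genes, 52.3% were called in that comparison (limma, adjusted p under 0.05): 21.4% rose and 31.0% fell, with a median of -0.06. Called genes were thus common throughout. Of the 7 hypoxia targets 3 rose and 3 fell, with differences that ran between -3.38 and 3.74. In SKR6CA against SKR6-Vector, 10 of 22 glycolysis genes (45.5%) rose and 1 fell, with a median of 0.15, and 5 of the 7 hypoxia targets rose and 0 fell, with a median of 0.61. There 26.6% of all genes were called: 11.7% rose and 14.9% fell, with a median of 0.0033.

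The control lines differed from each other too. In SKR6-Vector, 1 glycolysis gene rose and 5 fell relative to SKR6 (of all genes 25.7% were called, 12.2% higher and 13.4% lower), while 1 hypoxia target rose and 4 fell. Of these 4 falls, NDRG1 (-0.25) lost its call when any array of SKR6-Vector or SKR6 was left out, and EGLN3 (-0.55, adjusted p = 0.0421) lost it when any 1 of 9 arrays was left out. When SKR6CA was set against the untransduced SKR6, 6 glycolysis genes rose and 0 fell, and 3 hypoxia targets rose and 1 fell (of all genes 24.3% were called, 9.97% higher and 14.4% lower). The comparisons with SKR6CA share its arrays, and those with SKR6 share that line's, so their values are given side by side below and not as separate evidence.

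**Figure D1:**
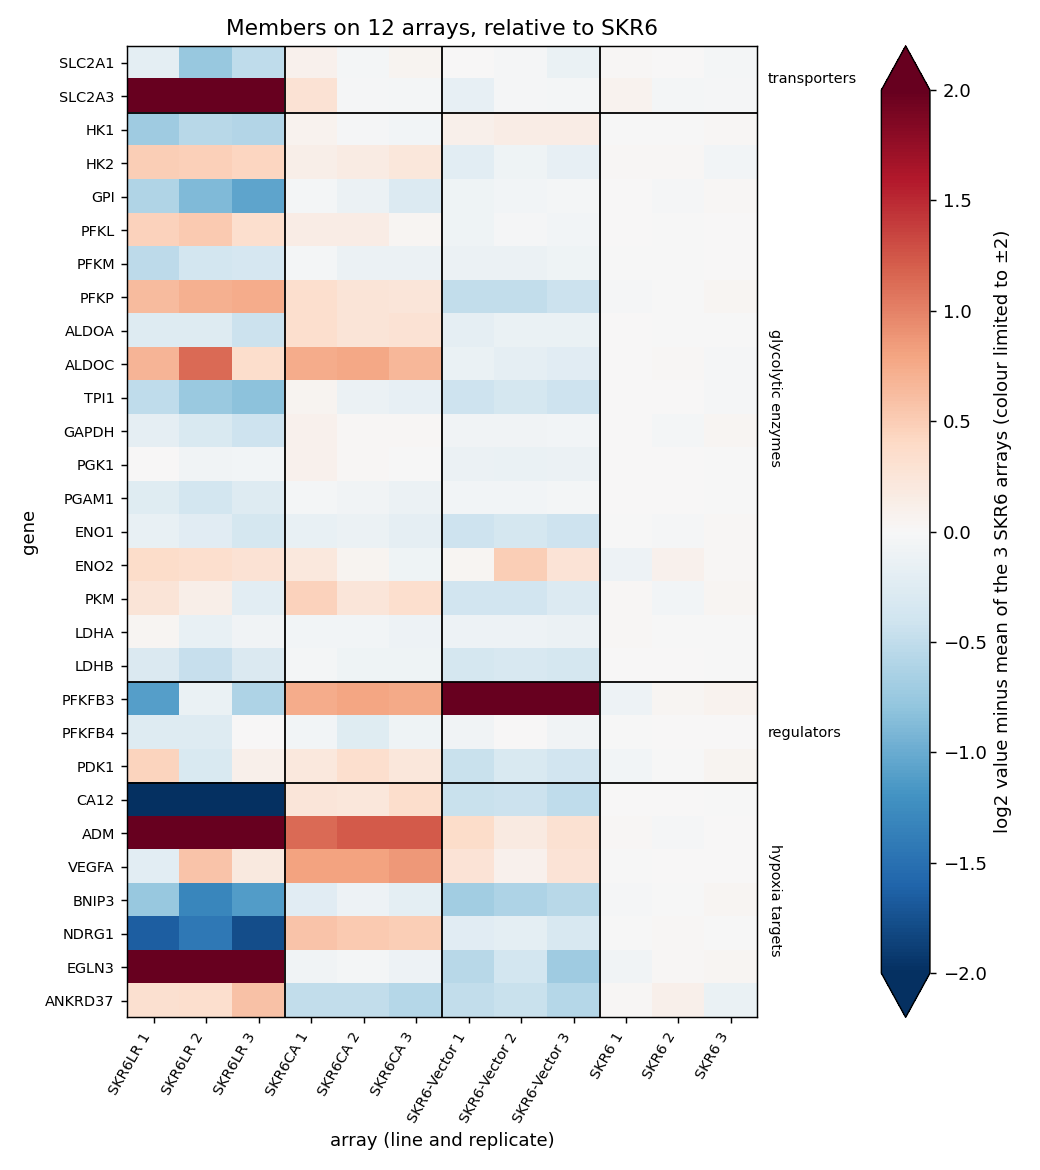
Log2 value of each of the 29 genes (rows, grouped by role) on each of the 12 arrays (columns, SKR6LR, SKR6CA, SKR6-Vector and SKR6) minus the mean of the 3 SKR6 arrays, with the colour limited to 2 in both directions. SLC2A3, ADM and EGLN3 are high and CA12 and NDRG1 low on all 3 SKR6LR arrays, and PFKFB3 is highest on the 3 SKR6-Vector arrays.

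The largest change among the glycolysis genes was in a glucose transporter. SLC2A3 (GLUT3), a high-affinity glucose transporter best known in neurons, had log2 values of 11.14, 11.69 and 11.28 in SKR6LR, 5.38, 5.07 and 5.05 in SKR6CA, 4.94, 5.07 and 5.05 in SKR6-Vector and 5.16, 5.05 and 5.08 in SKR6. All 3 SKR6LR arrays lay far above the 9 others, which were below the array medians. SLC2A3 rose by 6.28 ± 0.13 (SE, adjusted p = 5.80e-13) in SKR6LR against SKR6, a 77.5-fold difference of intensities. The other probe sets of this gene gave differences of 6.61 and 7.92. Low values carry no detection call here, so how far below the measured level the gene was in the other lines is unknown. The array lists 2 further probe sets for SLC2A3 together with SLC2A14, a near-identical copy, and signal of the copy cannot be told apart from that of SLC2A3.

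SLC2A1 (GLUT1), the transporter of most cells and a HIF target, went the other way in SKR6LR. It had 10.31, 9.74 and 10.00 in SKR6LR and 10.53, 10.52 and 10.47 in SKR6, without overlap. SLC2A1 fell by 0.49 ± 0.11 (SE, adjusted p = 0.00223) in SKR6LR. The call rests on the chosen probe set: a dimmer probe set of SLC2A1 differed by -0.19 in SKR6LR against SKR6 without a call, and by 0.41 in SKR6CA against SKR6-Vector with a call (adjusted p over all probe sets = 0.0399), where the chosen one differed by 0.09.

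Hexokinases trap glucose in the cell as its phosphate. HK2, the inducible form found in muscle and in many tumours, had 11.87, 11.86 and 11.80 in SKR6LR, 11.50, 11.54 and 11.61 in SKR6CA, 11.17, 11.29 and 11.21 in SKR6-Vector and 11.40, 11.41 and 11.33 in SKR6. The 4 lines did not overlap in HK2, with SKR6LR on top and SKR6-Vector lowest. HK2 rose by 0.46 in SKR6LR against SKR6, by 0.33 in SKR6CA against SKR6-Vector and by 0.17 in SKR6CA against SKR6 (adjusted p = 1.37e-05, 9.00e-04 and 0.0422). The last of these calls was lost when any 1 of 7 arrays was left out, with the mean of probe sets (0.05) and without _x_at and _s_at probe sets. Its dimmer probe sets went against the rise in SKR6CA: 1 of them fell by 0.24 against SKR6-Vector (adjusted p over all probe sets = 0.0481), and the mean of the 3 HK2 probe sets differed by -0.10 without a call. HK1, the widely expressed form, fell by 0.62 ± 0.06 (SE, adjusted p = 1.50e-06) in SKR6LR against SKR6, with 11.21, 11.37 and 11.33 in SKR6LR and 11.92, 11.91 and 11.94 in SKR6. No call was made for HK1 in SKR6CA against SKR6-Vector, where it differed by -0.14.

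GPI, which converts glucose phosphate to fructose phosphate, had 11.88, 11.60 and 11.43 in SKR6LR and 12.48, 12.45 and 12.51 in SKR6. It fell by 0.84 ± 0.10 (SE, adjusted p = 7.76e-06), the largest fall among the 17 enzymes in that comparison. In SKR6CA against SKR6-Vector GPI differed by -0.09 without a call.

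Phosphofructokinase, the committed step of the pathway, is built from the products of 3 genes. PFKP, the platelet form, had 11.52, 11.60 and 11.63 in SKR6LR, 11.22, 11.15 and 11.13 in SKR6CA, 10.39, 10.39 and 10.46 in SKR6-Vector and 10.86, 10.88 and 10.92 in SKR6. No line overlapped another in PFKP. It rose by 0.70 in SKR6LR against SKR6 (adjusted p = 2.17e-07), by 0.75 in SKR6CA against SKR6-Vector (8.20e-07) and by 0.28 in SKR6CA against SKR6 (0.00245), and it fell by 0.47 in SKR6-Vector against SKR6 (4.09e-05). A second PFKP probe set lay near the floor of the array (means of 4.02 to 4.13) and was not called in any of these comparisons, and the mean of both sets gave smaller differences of 0.30, 0.39, 0.15 and -0.23, all called. PFKL, the liver form, rose by 0.44 ± 0.06 (SE) in SKR6LR, with 9.05, 9.12 and 8.93 there and 8.61, 8.59 and 8.60 in SKR6. PFKM, the muscle form, fell by 0.41 ± 0.06 (SE), with 10.49, 10.65 and 10.68 in SKR6LR and 11.00, 11.01 and 11.02 in SKR6. Neither was called in SKR6CA against SKR6-Vector, where PFKL differed by 0.17 (adjusted p = 0.0606) and PFKM by 0.02. PFKL was called higher there when SKR6LR replicate 2 or 3 was left out. The same call came with median centring, cyclic loess normalisation, a filter on low values or 1 weight per line.

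Aldolase splits the sugar phosphate into trioses. ALDOC, the brain form, had 9.81, 10.27 and 9.49 in SKR6LR, 9.88, 9.91 and 9.80 in SKR6CA, 9.00, 8.97 and 8.91 in SKR6-Vector and 9.15, 9.16 and 9.11 in SKR6. SKR6LR and SKR6CA were both above the control lines on every array. ALDOC rose by 0.71 ± 0.14 (SE, adjusted p = 8.11e-04) in SKR6LR against SKR6, by 0.91 in SKR6CA against SKR6-Vector (4.01e-04) and by 0.72 in SKR6CA against SKR6 (0.00244). ALDOA, the main form of most tissues, had 13.63, 13.64 and 13.46 in SKR6LR, 14.22, 14.14 and 14.18 in SKR6CA, 13.71, 13.76 and 13.75 in SKR6-Vector and 13.89, 13.88 and 13.89 in SKR6. It rose by 0.44 in SKR6CA against SKR6-Vector and by 0.29 against SKR6, and its 3 probe sets were all called in the first of these. In SKR6LR ALDOA fell by 0.31 (adjusted p = 5.84e-04), a call lost with cyclic loess normalisation (-0.15, adjusted p = 0.0636).

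**Figure D2:**
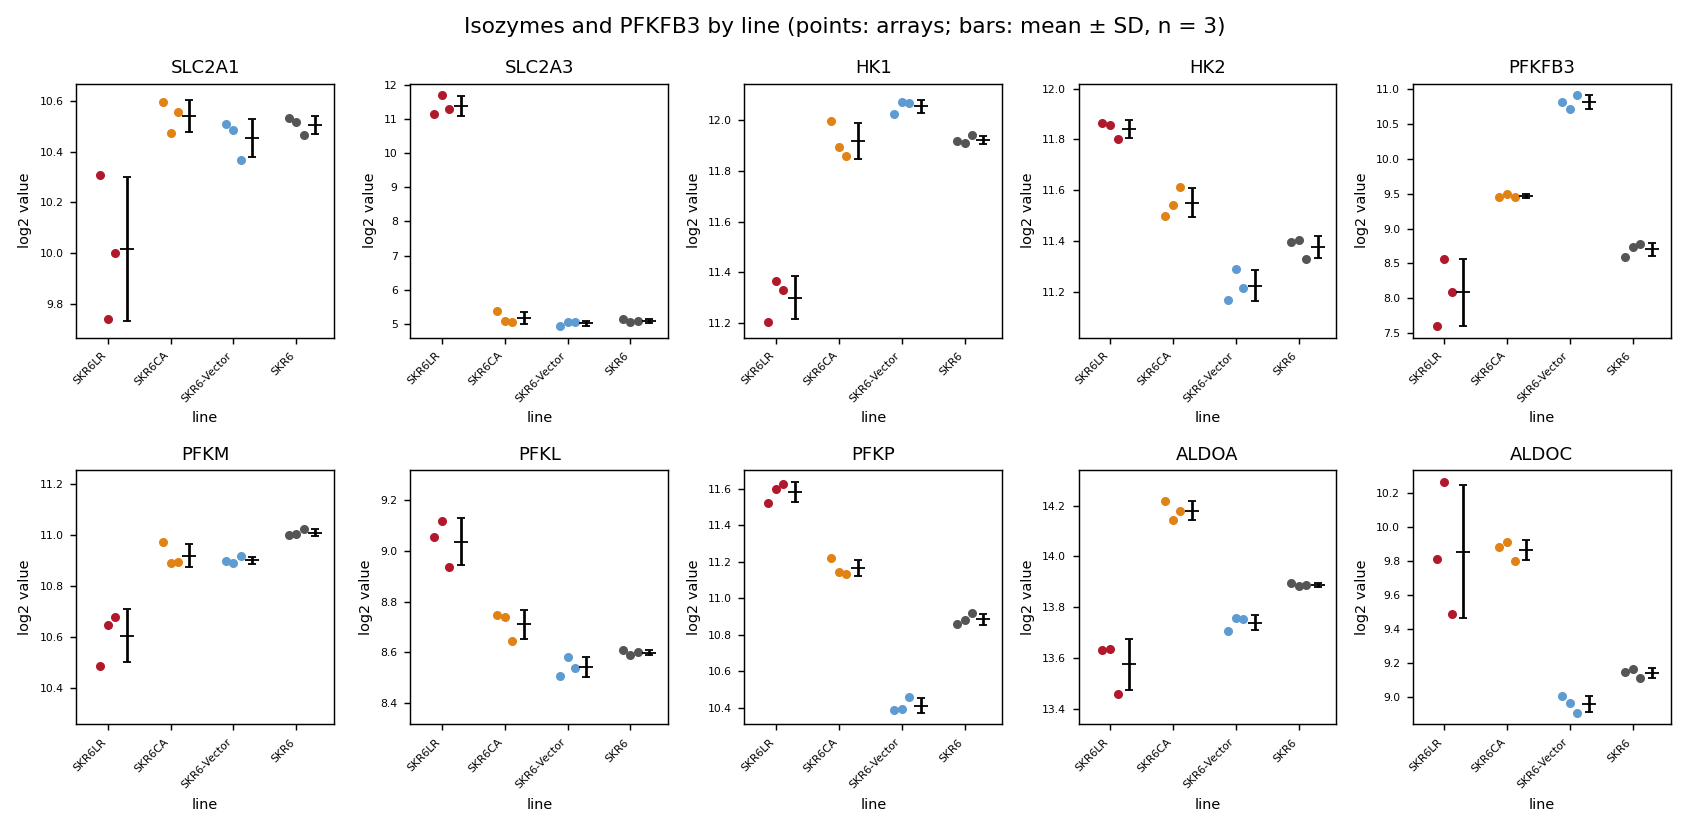
Log2 value (y axis, scaled per panel) of the paired transporters and isozymes and of PFKFB3 by line, from left to right SKR6LR, SKR6CA, SKR6-Vector and SKR6; points are arrays and bars the mean ± SD of 3 arrays. In SKR6LR, SLC2A3, HK2, PFKL, PFKP and ALDOC lie above SKR6 while SLC2A1, HK1, PFKM and ALDOA lie below it.

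The 2 genes of a pair moved in opposite directions in some comparisons and in the same direction in others. Their moves were measured on each array as the difference between the 2 genes, which shows only that they changed unequally. The HK2 minus HK1 difference was 0.66, 0.49 and 0.47 in SKR6LR and -0.52, -0.50 and -0.61 in SKR6, a shift of 1.09. The shifts in SKR6LR against SKR6 were 6.76 for SLC2A3 minus SLC2A1, 0.84 for PFKL minus PFKM, 1.10 for PFKP minus PFKM, 1.03 for ALDOC minus ALDOA and 0.29 for LDHA minus LDHB. In SKR6CA against SKR6-Vector they were 0.06 for the transporters, 0.46 for the hexokinases, 0.15 and 0.74 for the phosphofructokinases, 0.47 for the aldolases and -0.23 for the lactate dehydrogenases. Over 6 pairs and 4 comparisons, 19 of the 24 exact two-sided permutation tests gave p = 0.1 (0.126 after Benjamini-Hochberg adjustment over the 24), the smallest value that 3 against 3 arrays allow. Groups did not overlap in those 19, and the design cannot pass a threshold of 0.05.

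Of the later enzymes, TPI1, GAPDH, PGAM1, ENO1 and LDHB were called lower in SKR6LR, where 31.0% of all genes fell. TPI1, which interconverts the trioses, had 12.92, 12.69 and 12.61 in SKR6LR and 13.44, 13.43 and 13.41 in SKR6 and fell by 0.69 ± 0.08 (SE, adjusted p = 9.79e-06). GAPDH, the dehydrogenase often used as a reference gene, fell by 0.30 (adjusted p = 0.00121), with 14.58, 14.45 and 14.35 in SKR6LR and 14.76, 14.73 and 14.79 in SKR6. The 3′ minus 5′ gap of the GAPDH control was 0.16, 0.23 and 0.51 in SKR6LR and 0.12, 0.15 and 0.13 in SKR6, so the array with the lowest GAPDH value also had the widest gap. Without SKR6LR replicate 3, GAPDH still fell by 0.24 and TPI1 by 0.62. The mutase PGAM1 fell by 0.29, the enolase ENO1 by 0.25 and LDHB, the heart-type lactate dehydrogenase, by 0.34. Cyclic loess made the falls of PFKM, PGAM1 and LDHB smaller (-0.24, -0.12 and -0.18, all called). With cyclic loess GAPDH (-0.13, adjusted p = 0.0765) and ENO1 (-0.08) lost their calls. ENO1 also lost its call with the mean of its probe sets. It differed by 0.22 without a call when probe sets that can match several transcripts were left out. PGK1, PKM and LDHA were not called in SKR6LR, with differences of -0.04, 0.06 and -0.06. PGK1 was called lower by its probe set left without _x_at and _s_at sets (-0.30, adjusted p = 7.34e-04). It was also called lower with the mean of its probe sets, but higher with cyclic loess (0.12). PKM varied among the SKR6LR arrays, at 9.52, 9.38 and 9.04, against 9.28, 9.20 and 9.30 in SKR6. ENO2, the neuronal enolase, was called higher (0.33, adjusted p = 0.0217) at values of 4.09 to 4.17 in SKR6LR and 3.70 to 3.89 in SKR6, close to the floor of the array, and lost the call without SKR6LR replicate 1 or SKR6 replicate 1.

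With active p65 several later enzymes were higher than in SKR6-Vector, and TPI1, ENO1, LDHB and PKM were lower in SKR6-Vector than in SKR6. TPI1 had 13.47, 13.32 and 13.26 in SKR6CA, 13.01, 13.08 and 13.01 in SKR6-Vector and the SKR6 values above. It rose by 0.32 in SKR6CA against SKR6-Vector, fell by 0.39 in SKR6-Vector against SKR6, and differed by -0.08 between SKR6CA and SKR6. ENO1 (0.24 in SKR6CA against SKR6-Vector, -0.39 in SKR6-Vector against SKR6, -0.15 in SKR6CA against SKR6) and LDHB (0.27, -0.34 and -0.07) had the same order, with calls in the first and second comparison and none in the third. The calls of ENO1 depended on its probe sets: in SKR6CA against SKR6-Vector the mean of its sets was not called (adjusted p = 0.0798), and without _x_at and _s_at sets neither difference was called (0.24 and -0.16, adjusted p = 0.336 and 0.558). PGK1, the first ATP-forming enzyme, was called at 0.16 in SKR6CA against SKR6-Vector (adjusted p = 0.0368) but lost the call when any array of SKR6CA, SKR6-Vector or SKR6 was left out. TPI1 lost it without SKR6CA replicate 1 (adjusted p = 0.0520).

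PKM was the later enzyme that rose most with active p65. This pyruvate kinase had 9.71, 9.50 and 9.59 in SKR6CA, 8.88, 8.87 and 8.98 in SKR6-Vector and 9.28, 9.20 and 9.30 in SKR6, without overlap. It rose by 0.69 ± 0.10 (SE, adjusted p = 3.20e-04) against SKR6-Vector and by 0.34 (adjusted p = 0.0303) against SKR6, and fell by 0.35 in SKR6-Vector against SKR6 (adjusted p = 0.0279). The last 2 calls were each lost when single arrays were left out. A dimmer PKM probe set differed by 0.26 in SKR6CA against SKR6-Vector without a call. GAPDH, PGAM1 and LDHA were not called in any of the comparisons among SKR6CA, SKR6-Vector and SKR6, with differences between -0.11 and 0.11.

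Among the regulators PFKFB3 moved most, and most in the vector line. PFKFB3 makes fructose 2,6-bisphosphate, the strongest activator of phosphofructokinase. It had 7.60, 8.57 and 8.09 in SKR6LR, 9.45, 9.50 and 9.45 in SKR6CA, 10.82, 10.72 and 10.91 in SKR6-Vector and 8.60, 8.74 and 8.78 in SKR6. The 4 lines did not overlap, though SKR6LR came close to SKR6, and SKR6-Vector was highest. PFKFB3 rose by 2.11 ± 0.17 (SE, adjusted p = 2.48e-06) in SKR6-Vector against SKR6 and by 0.76 in SKR6CA against SKR6 (0.00656), and fell by 1.35 in SKR6CA against SKR6-Vector (9.49e-05) and by 0.62 in SKR6LR against SKR6 (0.00931). Without SKR6LR replicate 1 the last of these was -0.38 (adjusted p = 0.0178). Against the empty vector active p65 thus went with less PFKFB3 message, and against the untransduced parent with more. PFKFB4, a relative of PFKFB3, was called in none of the 4 comparisons, with differences of -0.16 to -0.05.

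PDK1, a kinase that shuts off pyruvate dehydrogenase and so keeps pyruvate out of the mitochondrion, had 9.32, 9.45 and 9.33 in SKR6CA, 8.68, 8.81 and 8.74 in SKR6-Vector and 9.06, 9.11 and 9.17 in SKR6. It rose by 0.63 ± 0.14 (SE, adjusted p = 0.00481) in SKR6CA against SKR6-Vector and differed by 0.25 from SKR6 without a call. The mean of its probe sets gave 0.37 in SKR6CA against SKR6-Vector, also called. In SKR6LR it had 9.57, 8.81 and 9.21, on both sides of the SKR6 arrays, and a difference of 0.08.

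**Figure D3:**
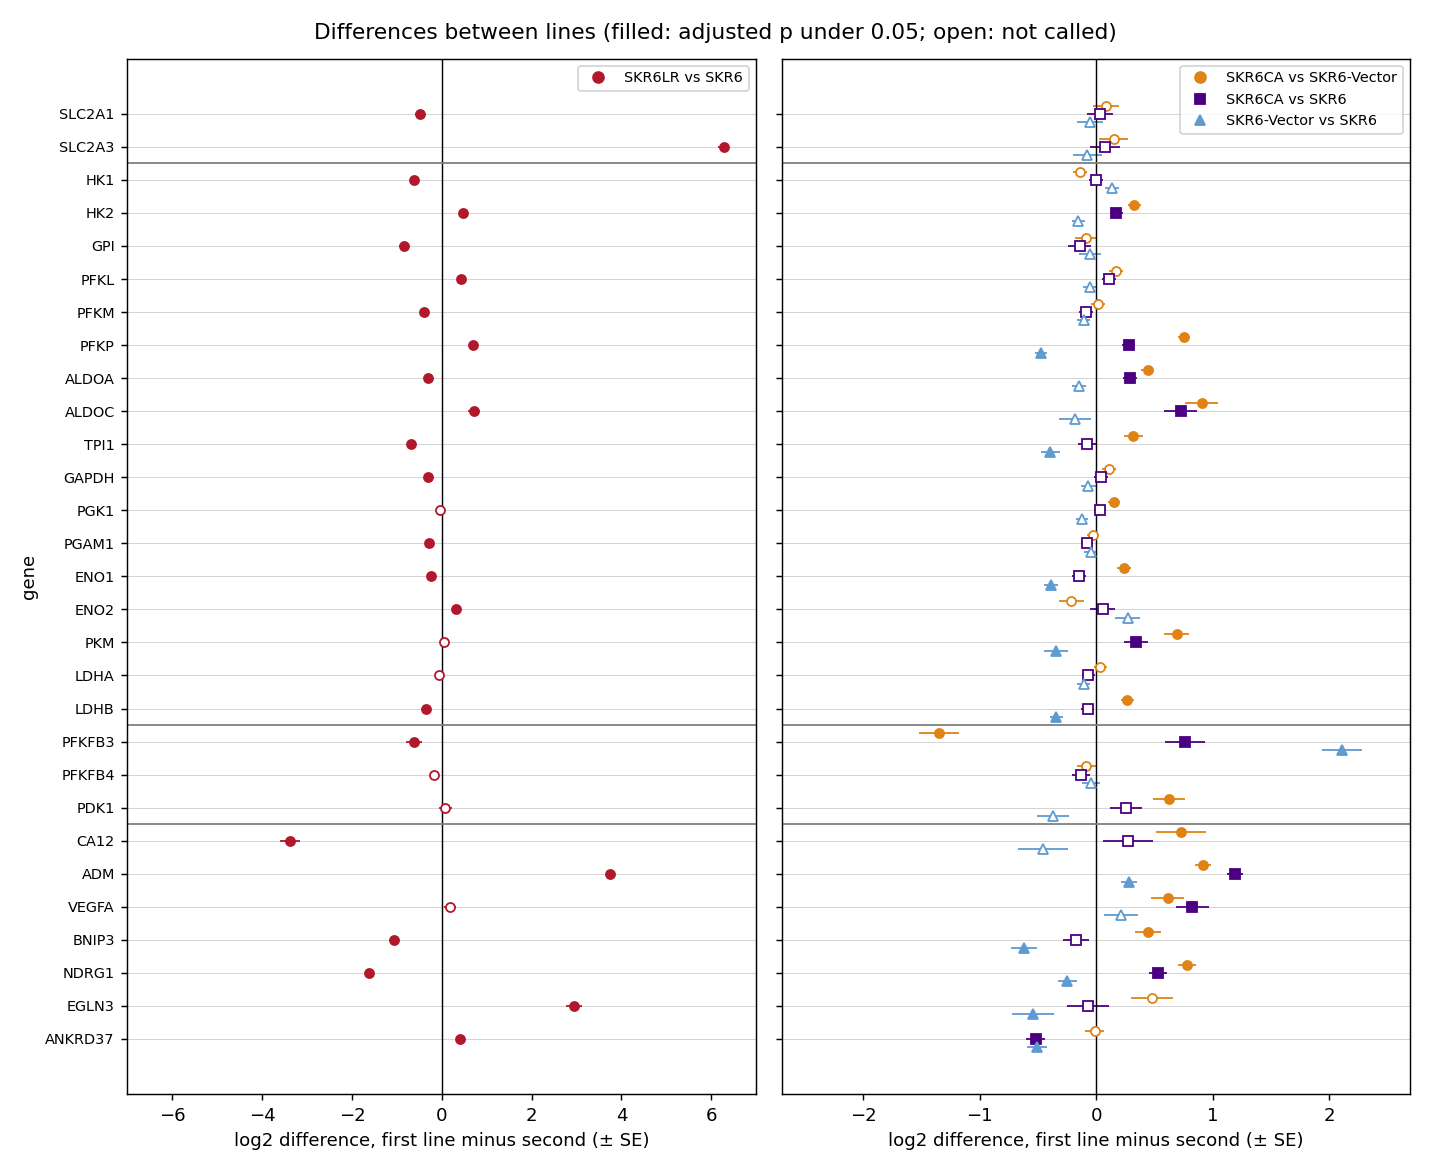
Log2 difference (x axis, ± SE of the limma fit) of the 29 genes (y axis, by role) for SKR6LR against SKR6 in the left panel and for SKR6CA against SKR6-Vector, SKR6CA against SKR6 and SKR6-Vector against SKR6 in the right panel; filled marks have an adjusted p under 0.05. The left axis runs wider than the right one, since SLC2A3 differs by 6.28 in SKR6LR.

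The sequence around the start site was available from RefSeq (build GRCh38.p14) for 28 of the 32 genes, as windows of 250 bases before to 50 bases after the start, in 54 windows over alternative starts. They were searched on both strands for the HIF core motif ACGTG and for its variant with a different first base, GCGTG. On the opposite strand the first reads CACGT, and the variant there reads CACGC. Where a match on each strand of the first form overlaps, the run reads CACGTG and was counted as 2 matches. CA9 and SLC16A3 also have windows, counted among the 54, but are not shown as they were not analysed on the arrays. The windows below belong to the 5 hypoxia targets with both array values and a promoter window, and to ALDOC, which like HK2 and PFKP rose in both SKR6LR and SKR6CA. They are shown on the gene's strand, with the motif in capitals, because these genes moved in different directions in SKR6LR. They lie at chr11:10304823-10305122 on the plus strand (ADM), chr14:33951025-33951324 on the minus strand (EGLN3), chr4:185396591-185396890 on the plus strand (ANKRD37), chr15:63381797-63382096 on the minus strand (CA12), chr10:131981874-131982173 on the minus strand (BNIP3) and chr17:28576846-28577145 on the minus strand (ALDOC).
ADM: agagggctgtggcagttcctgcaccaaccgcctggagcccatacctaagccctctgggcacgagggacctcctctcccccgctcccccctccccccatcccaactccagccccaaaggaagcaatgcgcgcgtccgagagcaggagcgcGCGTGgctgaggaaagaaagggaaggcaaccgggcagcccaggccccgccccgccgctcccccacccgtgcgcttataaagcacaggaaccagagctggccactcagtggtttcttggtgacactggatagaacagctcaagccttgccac
EGLN3: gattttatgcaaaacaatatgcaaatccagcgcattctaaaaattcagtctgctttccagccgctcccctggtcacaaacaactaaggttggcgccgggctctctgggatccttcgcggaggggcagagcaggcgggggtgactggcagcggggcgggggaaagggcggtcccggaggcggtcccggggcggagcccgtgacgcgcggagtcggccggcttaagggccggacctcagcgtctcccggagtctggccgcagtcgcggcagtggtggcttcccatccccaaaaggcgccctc
ANKRD37: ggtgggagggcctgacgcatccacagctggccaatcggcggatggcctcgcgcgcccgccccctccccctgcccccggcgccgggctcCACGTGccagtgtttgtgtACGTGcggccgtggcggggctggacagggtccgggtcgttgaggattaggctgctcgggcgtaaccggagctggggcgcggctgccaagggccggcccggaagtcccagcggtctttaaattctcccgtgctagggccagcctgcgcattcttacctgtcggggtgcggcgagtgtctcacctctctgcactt
CA12: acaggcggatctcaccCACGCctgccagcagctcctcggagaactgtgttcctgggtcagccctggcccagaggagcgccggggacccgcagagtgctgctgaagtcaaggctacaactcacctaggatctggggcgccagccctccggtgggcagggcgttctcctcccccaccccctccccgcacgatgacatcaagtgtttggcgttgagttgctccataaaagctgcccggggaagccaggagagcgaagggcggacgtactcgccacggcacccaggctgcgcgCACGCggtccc
BNIP3: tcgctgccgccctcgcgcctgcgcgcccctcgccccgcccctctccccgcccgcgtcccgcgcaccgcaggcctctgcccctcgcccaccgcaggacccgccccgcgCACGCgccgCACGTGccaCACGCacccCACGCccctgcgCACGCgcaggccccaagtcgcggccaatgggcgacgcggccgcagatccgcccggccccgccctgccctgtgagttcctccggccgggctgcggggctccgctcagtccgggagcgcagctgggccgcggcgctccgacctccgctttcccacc
ALDOC: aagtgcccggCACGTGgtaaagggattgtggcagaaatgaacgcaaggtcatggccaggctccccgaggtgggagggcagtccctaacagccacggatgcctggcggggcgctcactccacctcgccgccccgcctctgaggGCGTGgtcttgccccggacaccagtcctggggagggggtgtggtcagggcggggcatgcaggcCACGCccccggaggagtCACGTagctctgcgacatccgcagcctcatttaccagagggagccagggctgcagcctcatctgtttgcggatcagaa
The motif matched 1 time in ADM, 0 times in EGLN3, 3 times in ANKRD37, 2 times in CA12, 6 times in BNIP3 and 5 times in ALDOC. Matches stood in windows of genes that rose in SKR6LR (ADM, ANKRD37, ALDOC), and of genes that fell (CA12, BNIP3), while EGLN3, which rose, had no such letters in its window. Of the 54 windows here 36 (66.7%) held the motif, against 48.4% of all 35116 windows available. At least 1 window held it in 26 of the 28 genes, a count with no like share over all genes to set beside it. The genes' windows were also richer in G and C, with a median of 68.0% against 58.67%, and windows of the same gene overlap, so the shares are a description.

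The 7 hypoxia targets did not move together in SKR6LR. ADM, the vasodilator peptide adrenomedullin, had 12.95, 13.16 and 13.05 in SKR6LR, 10.45, 10.54 and 10.53 in SKR6CA, 9.67, 9.49 and 9.61 in SKR6-Vector and 9.33, 9.28 and 9.32 in SKR6. The 4 lines formed 4 separate levels in that order. ADM rose by 3.74 ± 0.07 (SE, adjusted p = 2.38e-13) in SKR6LR against SKR6, by 0.91 in SKR6CA against SKR6-Vector (1.03e-06), by 1.20 in SKR6CA against SKR6 (1.52e-07) and by 0.28 in SKR6-Vector against SKR6 (0.00859). It has a single probe set here.

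EGLN3 (PHD3), a prolyl hydroxylase that marks HIF alpha subunits for destruction and is itself HIF-induced, had 9.67, 10.64 and 10.10 in SKR6LR, 7.13, 7.16 and 7.09 in SKR6CA, 6.63, 6.83 and 6.49 in SKR6-Vector and 7.12, 7.22 and 7.24 in SKR6. SKR6LR lay above the other lines on every array. EGLN3 rose by 2.94 ± 0.18 (SE, adjusted p = 1.98e-08) in SKR6LR. In SKR6CA against SKR6-Vector it differed by 0.48 without a call (adjusted p = 0.0725), while its dimmer probe set was called there at 0.99. EGLN3 was called higher there when SKR6LR replicate 1 or 2 was left out. The same call came with the mean of its probe sets, median centring, a replicate block or 1 weight per line. ANKRD37, a small ankyrin-repeat protein widely used as a hypoxia marker, rose by 0.42 ± 0.08 (SE, adjusted p = 9.98e-04) in SKR6LR, with 7.83, 7.85 and 8.11 there and 7.54, 7.62 and 7.38 in SKR6. Its second probe set, near the floor, differed by -0.25 without a call, and the mean of both was not called (0.08, adjusted p = 0.458). It was lower in both transduced lines, by 0.52 in SKR6CA and by 0.51 in SKR6-Vector against SKR6, and differed by -0.01 between those lines.

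CA12, a membrane carbonic anhydrase that helps set the pH outside the cell, fell most in SKR6LR. It had 7.94, 9.14 and 8.83 in SKR6LR, 12.27, 12.25 and 12.37 in SKR6CA, 11.57, 11.60 and 11.52 in SKR6-Vector and 12.02, 12.03 and 12.01 in SKR6. CA12 fell by 3.38 ± 0.21 (SE, adjusted p = 2.91e-08), and its 7 probe sets all fell, by 0.52 to 4.16. In SKR6CA it was above SKR6-Vector on every array by 0.73 (adjusted p = 0.0232). That call was lost when any of the 6 compared arrays was left out (adjusted p up to 0.0738), and the SE pools the wide spread of the SKR6LR arrays.

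NDRG1, a stress-induced protein linked to differentiation, had 10.47, 10.68 and 10.34 in SKR6LR, 12.69, 12.63 and 12.61 in SKR6CA, 11.89, 11.91 and 11.80 in SKR6-Vector and 12.10, 12.13 and 12.10 in SKR6. SKR6LR and SKR6CA lay on opposite sides of the control lines. NDRG1 fell by 1.62 ± 0.08 (SE, adjusted p = 1.99e-09) in SKR6LR against SKR6 and rose by 0.78 in SKR6CA against SKR6-Vector (1.29e-05) and by 0.53 against SKR6 (3.43e-04). BNIP3, a receptor for the removal of mitochondria by autophagy, had 11.20, 10.65 and 10.84 in SKR6LR, 11.72, 11.85 and 11.76 in SKR6CA, 11.26, 11.34 and 11.40 in SKR6-Vector and 11.92, 11.94 and 11.99 in SKR6. It fell by 1.06 ± 0.11 (SE, adjusted p = 3.08e-06) in SKR6LR and by 0.62 in SKR6-Vector against SKR6 (0.00116). BNIP3 rose by 0.44 in SKR6CA against SKR6-Vector (0.00916) and differed by -0.17 from SKR6 without a call, with SKR6CA between the control lines.

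VEGFA, the main growth factor of blood vessels, had 11.20, 11.20 and 11.25 in SKR6CA, 10.66, 10.48 and 10.67 in SKR6-Vector and 10.38, 10.41 and 10.39 in SKR6. It rose by 0.61 ± 0.14 (SE, adjusted p = 0.00623) in SKR6CA against SKR6-Vector and by 0.83 (adjusted p = 0.00107) against SKR6. The mean of its probe sets was not called in SKR6CA against SKR6-Vector. In SKR6LR VEGFA had 10.19, 10.96 and 10.58, on both sides of the SKR6 arrays, and differed by 0.18 without a call, although it was called when SKR6LR replicate 1 was left out.

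**Figure D4:**
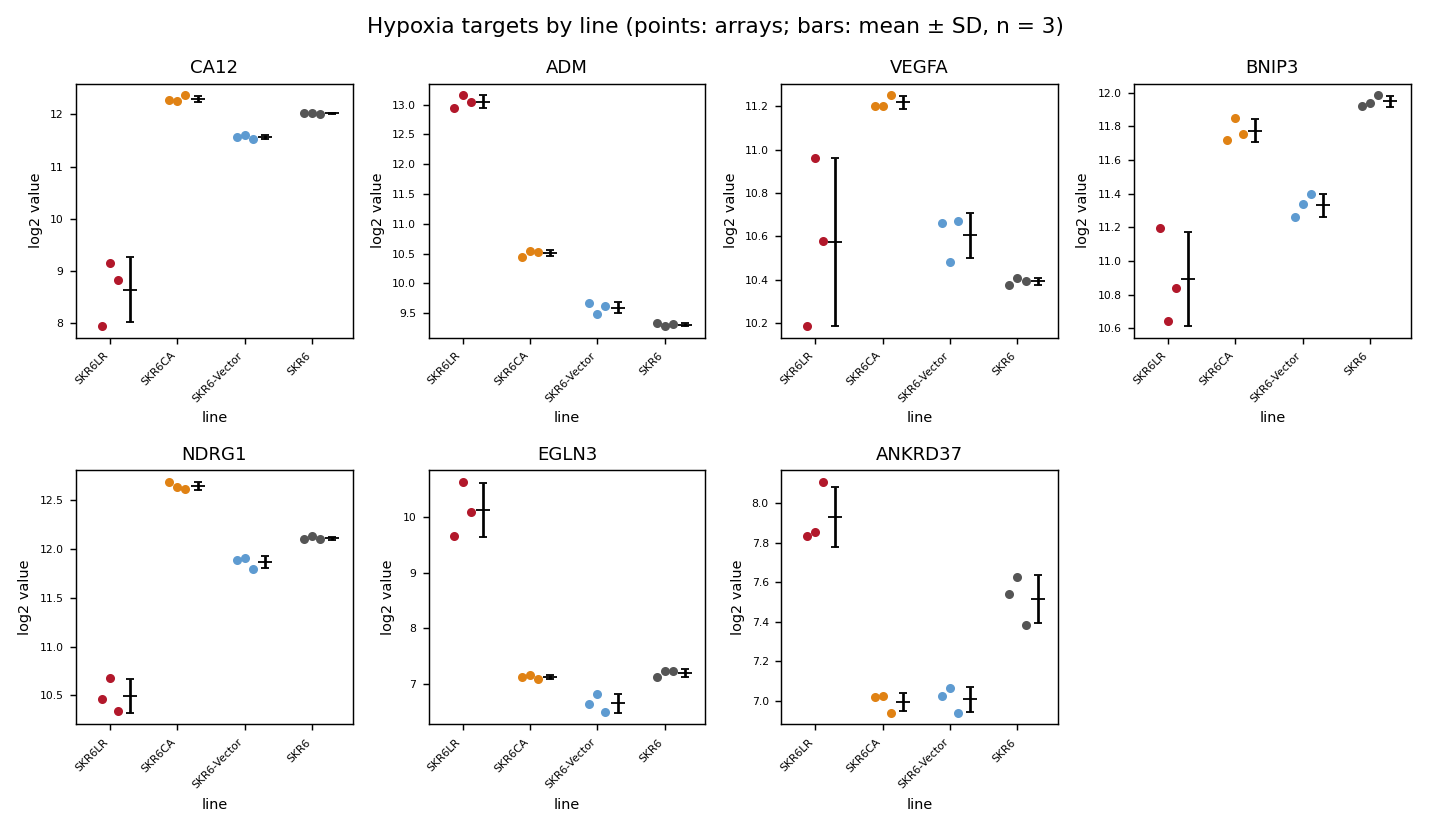
Log2 value (y axis, scaled per panel) of the 7 hypoxia targets by line, from left to right SKR6LR, SKR6CA, SKR6-Vector and SKR6; points are arrays and bars the mean ± SD of 3 arrays. SKR6LR is highest in ADM, EGLN3 and ANKRD37 and lowest in CA12, BNIP3 and NDRG1.

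Of the HIF system itself, 12 genes were measured. In SKR6LR 4 of them rose and 2 fell (33.3% and 16.7%, against 21.4% and 31.0% of all genes), and in SKR6CA against SKR6-Vector 3 rose and 3 fell (25.0% each, against 11.7% and 14.9%). EPAS1 (HIF-2 alpha) had 13.34, 13.22 and 13.22 in SKR6LR, 12.79, 12.75 and 12.77 in SKR6CA, 13.18, 13.21 and 13.20 in SKR6-Vector and 12.37, 12.41 and 12.37 in SKR6. It rose by 0.88 in SKR6LR against SKR6 (adjusted p = 1.65e-08) and fell by 0.42 in SKR6CA against SKR6-Vector (7.18e-05), and SKR6-Vector was itself 0.81 above SKR6. Its partner ARNT fell by 0.37 both in SKR6LR against SKR6 and in SKR6CA against SKR6-Vector. ARNT was 0.29 higher in SKR6-Vector than in SKR6, and SKR6CA differed from SKR6 by -0.08 without a call. The related ARNT2 rose by 0.74 in SKR6LR at low values (5.41 to 5.96 in SKR6LR and 4.80 to 4.95 in SKR6). CITED2, which competes with HIF for its coactivators, rose by 0.71 in SKR6LR and by 0.45 in SKR6CA against SKR6-Vector. HIF1AN (FIH), an oxygen-dependent brake on HIF, fell by 0.40 in SKR6CA against SKR6-Vector.

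Of a further 29 hypoxia-response genes, 12 rose and 9 fell in SKR6LR (41.4% and 31.0%, against 21.4% and 31.0% of all genes), so the share of falls was that of all genes. In SKR6CA against SKR6-Vector 5 of them rose and 9 fell (17.2% and 31.0%, against 11.7% and 14.9%). The largest changes in SKR6LR were IGFBP3, a binding protein of insulin-like growth factors (4.91), the transcriptional repressor BHLHE40 (2.95), TMEM45A (2.86) and the collagen hydroxylase PLOD2 (-2.79). Those in SKR6CA against SKR6-Vector were IGFBP3 (-3.62), the glycoprotein hormone STC1 (1.43), INSIG2, which holds back sterol synthesis (-0.95), and HILPDA, a lipid droplet protein (-0.75). IGFBP3 had 11.93, 11.53 and 11.78 in SKR6LR, 7.24, 6.93 and 7.04 in SKR6CA, 10.73, 10.62 and 10.72 in SKR6-Vector and 6.82, 6.85 and 6.83 in SKR6. The vector line was thus itself 3.86 above SKR6, and SKR6CA differed from SKR6 by 0.23 without a call. STC1 fell by 1.88 in SKR6-Vector against SKR6, and by 0.45 in SKR6CA against SKR6.

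Of the other isozymes and regulators of glycolysis, 32 measured, 18 fell and 7 rose in SKR6LR (56.2% and 21.9%, against 31.0% and 21.4% of all genes). The share of rises was thus near that of all genes. The transporter SLC2A10 (GLUT10) had 3.89, 3.76 and 3.55 in SKR6LR, 8.08, 8.45 and 8.29 in SKR6CA, 8.25, 8.40 and 8.27 in SKR6-Vector and 10.31, 10.41 and 10.30 in SKR6. It fell by 6.61 in SKR6LR against SKR6, to the bottom of the array's range, and it also fell by 2.07 in SKR6CA and fell by 2.03 in SKR6-Vector against SKR6. PDK3, a second pyruvate dehydrogenase kinase, fell by 4.19 in SKR6LR. Its means were 5.87 in SKR6LR, 9.07 in SKR6CA, 8.57 in SKR6-Vector and 10.07 in SKR6, so both transduced lines also lay below SKR6. BPGM, which diverts a glycolytic intermediate to 2,3-bisphosphoglycerate, rose by 3.67, with 11.45, 12.35 and 11.91 in SKR6LR and 8.23, 8.21 and 8.25 in SKR6. TIGAR, a phosphatase that lowers fructose 2,6-bisphosphate, rose by 2.24, with 11.92, 11.94 and 11.87 in SKR6LR and 9.67, 9.68 and 9.66 in SKR6.

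Of these 32 genes 8 rose and 4 fell in SKR6CA against SKR6-Vector (25.0% and 12.5%, against 11.7% and 14.9% of all genes). The changes of the largest size were in SLC2A12 (-1.63), the pyruvate dehydrogenase kinase PDK4 (-1.16), the lactate and pyruvate transporter SLC16A7 (-1.03) and the transporter SLC2A6 (0.98). SLC2A12 had 7.00, 7.10 and 7.11 in SKR6CA, 8.68, 8.85 and 8.57 in SKR6-Vector and 7.22, 7.23 and 7.14 in SKR6, so SKR6-Vector stood apart. SLC16A7 was likewise 0.93 higher in SKR6-Vector than in SKR6 and differed by -0.11 between SKR6CA and SKR6 without a call. SLC2A6 had 9.39, 9.35 and 9.52 in SKR6CA, 8.48, 8.41 and 8.44 in SKR6-Vector and 7.34, 7.32 and 7.46 in SKR6, and it varied in SKR6LR, at 7.57, 9.50 and 8.59.

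Among 27 genes of the branches off glycolysis, 9 rose and 8 fell in SKR6LR (33.3% and 29.6%, against 21.4% and 31.0% of all genes), and 7 rose and 5 fell in SKR6CA against SKR6-Vector (25.9% and 18.5%, against 11.7% and 14.9%). FBP1, the fructose bisphosphatase that runs the phosphofructokinase step backwards in gluconeogenesis, had 6.30, 5.97 and 6.12 in SKR6LR, 10.11, 10.05 and 10.07 in SKR6CA, 11.40, 11.48 and 11.41 in SKR6-Vector and 11.36, 11.35 and 11.39 in SKR6. It fell by 5.24 in SKR6LR against SKR6 (adjusted p = 2.86e-14), by 1.35 in SKR6CA against SKR6-Vector (7.46e-08) and by 1.29 in SKR6CA against SKR6 (1.67e-07), and the control lines differed by 0.06 without a call. PYGL, the glycogen phosphorylase of liver, rose by 2.27 in SKR6LR and by 0.77 in SKR6CA against SKR6-Vector. PC, the carboxylase that feeds pyruvate into gluconeogenesis and the citrate cycle, rose by 1.26 in SKR6CA against SKR6-Vector, and GPD2, the mitochondrial glycerol phosphate dehydrogenase, by 0.85. GPD2 fell by 0.89 in SKR6-Vector against SKR6, and SKR6CA differed from SKR6 by -0.04 without a call. PC fell by 0.74 in SKR6-Vector against SKR6 and rose by 0.52 in SKR6CA against SKR6. GPD2 fell by 1.35 in SKR6LR, and PGD, an enzyme of the pentose phosphate branch, by 1.26.

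Several of these values rest on probe sets that can match more than 1 transcript. The chosen probe set was of the _x_at kind for 6 of the 29 genes and of the _s_at kind for 12, and the abundant enzymes among them have processed pseudogenes or close paralogs whose signal cannot be separated. For the 19 genes with several probe sets, all probe sets gave the same call in 13 for SKR6LR against SKR6 and in 9 for SKR6CA against SKR6-Vector. HK2 in SKR6CA against SKR6-Vector was the only gene with probe sets called in both directions in the 4 comparisons.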

How the data were processed

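Total RNA of 12 cultures (4 lines, 3 of each) was copied from an oligo-dT primer, transcribed with biotin label and measured on arrays of 54675 probe sets, per the labels' protocols. The values are log2 values as deposited, made with RMA, a tool named beside limma in the submitters' processing notes; the sources used here give no version or setting. RMA sets a level relative to the other arrays and compresses small differences near the background, and no detection calls were used. The number of arrays limits the precision.

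Gene names came from the 2016 platform annotation (42898 listed, 41097 with 1 gene, 1801 with several and 11777 unnamed here). Symbols were updated by gene ID through RefSeq for 41043 of them, and 54 kept the older symbol. Each of 19775 genes kept its single-gene probe set of highest mean.

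The test was limma's moderated test (version 3.58.1, R 4.3.3, two-sided) in 1 model of all 12 arrays with a mean per line and 1 spread for all lines. Benjamini-Hochberg adjustment ran over all genes, with 0.05 as the threshold. Pairs of isozymes were compared with exact permutation tests (scipy 1.17.1). The model was tested on simulated data with 1 spread per gene for all lines, so that test did not cover the wider spread of the SKR6LR arrays. The members, the further gene lists, the tests and the 8 alternatives besides leaving out each of the 12 arrays were chosen with earlier results of these data known. From each further list, up to 4 called genes of largest difference in SKR6LR against SKR6 and in SKR6CA against SKR6-Vector were named, and values of single probe sets were given after they were seen.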

Additional observations from a re-analysis of the deposited data

How the results depend on the processing

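Precision is limited by 3 arrays per line and by the wide spread of SKR6LR, and levels near the floor have no detection call. Without _x_at and _s_at probe sets 17 of the 29 members could be tested (13 of 22 glycolysis genes and 4 of 7 hypoxia targets), and with the filter on low values 28. In the alternatives in which they were tested, 19 members kept their call or lack of a call in SKR6LR against SKR6. The number was 18 in SKR6CA against SKR6-Vector, 15 in SKR6-Vector against SKR6 and 23 in SKR6CA against SKR6. Called members among them kept their direction, while uncalled differences were free to change sign. The cause of the changes below was not tested, except where an alternative tests other probe sets. A turn of direction was counted only where the reported difference or the alternative was called. By that rule HK2 turned in SKR6CA against SKR6-Vector with the mean of probe sets (-0.10, adjusted p = 0.324). In SKR6LR against SKR6, PGK1 turned with cyclic loess (0.12, adjusted p = 0.0440) and ENO1 without _x_at and _s_at probe sets (0.22, adjusted p = 0.270). Uncalled differences changed sign too, as for LDHA in SKR6LR against SKR6 (-0.06, up to 0.11 in the alternatives).

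In SKR6LR against SKR6, cyclic loess made 52.3% of all calls higher, against 40.8% as reported, and the 11 glycolysis falls became 4 without _x_at and _s_at probe sets: 6 were not tested there, 2 lost the call (SLC2A1 and ENO1), 3 kept it and PGK1 gained one. In SKR6CA against SKR6-Vector, median centring made 56.2% of all calls higher, against 43.9%. There 5 hypoxia rises became 3 without _x_at and _s_at probe sets, as VEGFA and NDRG1 were not tested. The 1 glycolysis fall, PFKFB3, became 0 because it was not tested without those probe sets, 2 with 1 weight per line and 1 to 2 when single arrays were left out.

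In SKR6-Vector against SKR6, the 1 glycolysis rise, PFKFB3, became 0 because it was not tested without _x_at and _s_at probe sets, 3 with 1 weight per line and 1 to 2 without single arrays. The 5 glycolysis falls became 11 and the 1 hypoxia rise became 2 with those weights. The 4 hypoxia falls became 2 without _x_at and _s_at probe sets, where NDRG1 and EGLN3 were not tested, with cyclic loess and at an adjusted p under 0.01, and 2 to 5 without single arrays. In SKR6CA against SKR6, the 4810 calls over all genes became 3069 at an adjusted p under 0.01. There 3 hypoxia rises became 1 without _x_at and _s_at probe sets, as VEGFA and NDRG1 were not tested, and 0 glycolysis falls became 1 with 1 weight per line and 0 to 1 without single arrays.

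Replicate numbers were used as a replicate block although they share only a number: deviations of same-numbered arrays correlated between -0.0341 and 0.0948. With the replicate block 10244 genes were called in SKR6LR against SKR6 and 5105 in SKR6CA against SKR6-Vector, against 10345 and 5251 without it. There were 4825 with it in SKR6-Vector against SKR6 and 4587 in SKR6CA against SKR6.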
